A study of Mus musculus with 6 samples.

Results

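Vesicle transport across cerebellar endothelium was followed through 10 genes: Mfsd2a, Cav1, Cav2, Cavin1, Cavin2, Plvap, Tfrc, Cltc, Dnm2 and Ehd2. These genes and the gene lists below were chosen by name, with earlier results of these data known. All 10 were among the 14437 genes of the deposited table. The study compared endothelial cells from the cerebellum of 3 wild-type mice with those of 3 mice labelled Ccm3 knock-out, all of strain C57BL6 at postnatal day 9. Each library came from a separate mouse, and the cells were isolated with CD45 and CD31 beads, which bind leukocytes and endothelial cells. The symbol Ccm3 stands for Pdcd10, which is mutated in cerebral cavernous malformations, which are enlarged and leaky brain vessels. No source used here gives the allele, a Cre driver or an inducing agent.

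Transcytosis carries cargo through an endothelial cell in vesicles, and brain endothelium is known for keeping most of it low. Mfsd2a, a transporter of lysophosphatidylcholine lipids in the plasma membrane, is known in mice to restrain the formation of caveolae. Caveolae are small membrane pits built from caveolins (Cav1, Cav2) and cavins (Cavin1, Cavin2), with the ATPase Ehd2 at their neck. Plvap forms the diaphragms of fenestrae and caveolae in leaky endothelium, and its level is known to decline as the barrier matures. Iron enters the brain by the other route, in which the transferrin receptor Tfrc is taken up in clathrin-coated pits. Cltc is the clathrin heavy chain, and Dnm2 is the dynamin that cuts vesicles of either kind from the membrane.

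Values are reads normalised by the authors with a size factor per library, and folds are knock-out over wild-type on the scale of log2(value + 1). A gene is said to have risen or fallen where the limma test over all 14076 genes kept gave a Benjamini-Hochberg adjusted p under 0.05. Recovered gene reads ranged from 11075769 to 21142333 per library. The targeted gene Pdcd10 had 522 to 689 normalised reads in wild-type and 154 to 309 in the knock-out libraries (fold 0.39, adjusted p = 0.0162). All 12 general endothelial markers were present, and their summed level was 147127 to 165992 in wild-type and 131751 to 159727 in the knock-out. Among other cells, summed markers of pericytes and smooth muscle overlapped between the groups (40747 to 80698 against 41940 to 55354). Knock-out 1 stood apart in markers of choroid plexus epithelium, with a sum of 73487 against 12778 to 26540 in the other 5 libraries. Astrocyte markers had lower sums in the knock-out (3101 to 3585 against 5396 to 6404), and 1 of 8, Gja1, fell. None of these 8 was at 0 in any library, and their part in the results below was not tested. No tested marker of neurons (7), oligodendrocyte lineage (8) or microglia and macrophages (5) was called, and their sums overlapped between the groups. In bulk samples, fewer cells of a type and less RNA per cell cannot be told apart.

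Of the 10 genes, Mfsd2a fell, Cav1 and Cavin2 rose, and 7 were not called. Over all genes tested, 6.24% were called, 3.6% as higher and 2.64% as lower. DESeq2 and edgeR also called Cav1 and Cavin2 as higher and Mfsd2a as lower. The 2 rises were the less stable calls. Neither was called without wild-type 1 or wild-type 2, and 1 was called when wild-type 3 or either of knock-out 1 and 2 was left out. The fit with the replicate number as a block called 1 of them. The groups did not overlap for 7 of the 10 genes, 4 higher and 3 lower in the knock-out, against 25.5% of all genes tested (12.8% in each direction). The median log2 change of the 10 was 0.23, and that of all genes was -0.0067.

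**Figure D1:**
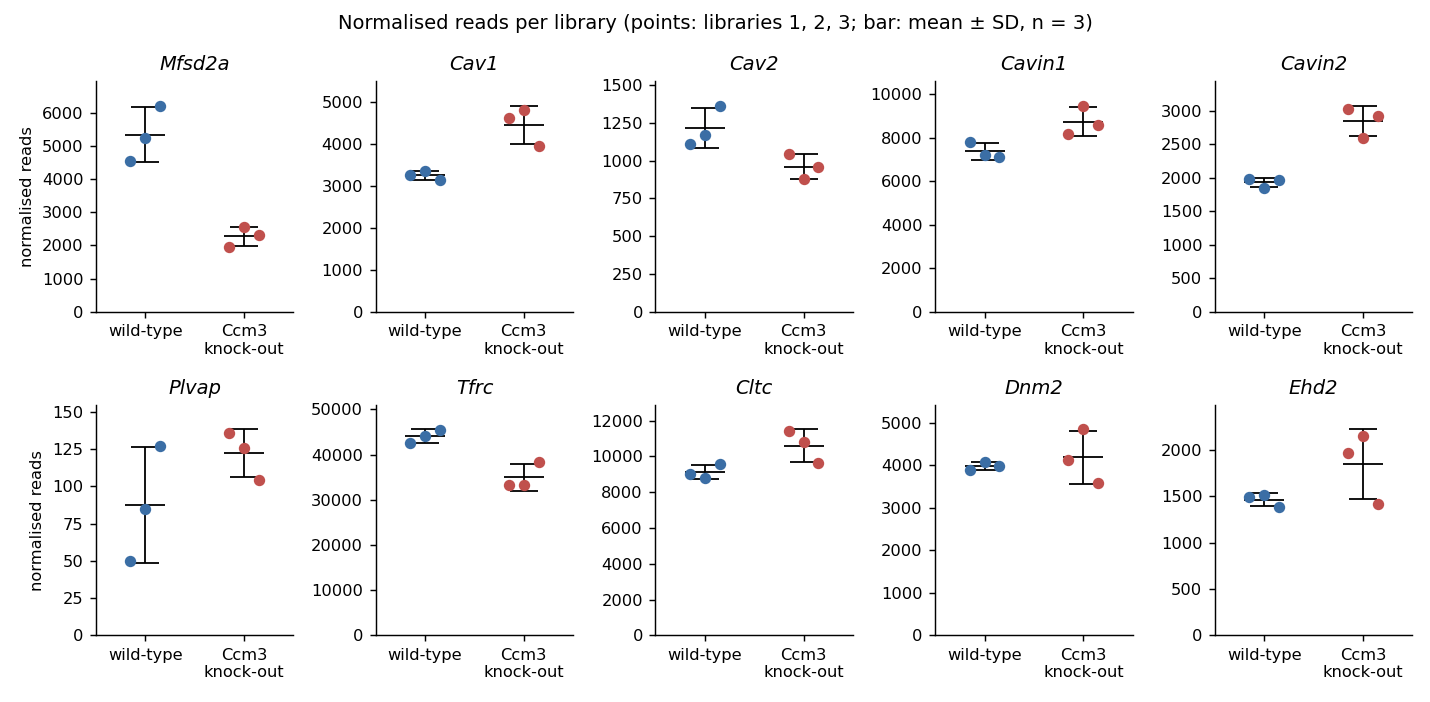
Normalised reads of the 10 genes in every library. Each panel starts at 0; points are libraries 1, 2 and 3 of a group from left to right, and the bars give mean ± SD (n = 3). All 3 knock-out libraries lie below all wild-type libraries for Mfsd2a, Cav2 and Tfrc and above them for Cav1, Cavin1, Cavin2 and Cltc, and the groups overlap for Plvap, Dnm2 and Ehd2.

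**Figure D2:**
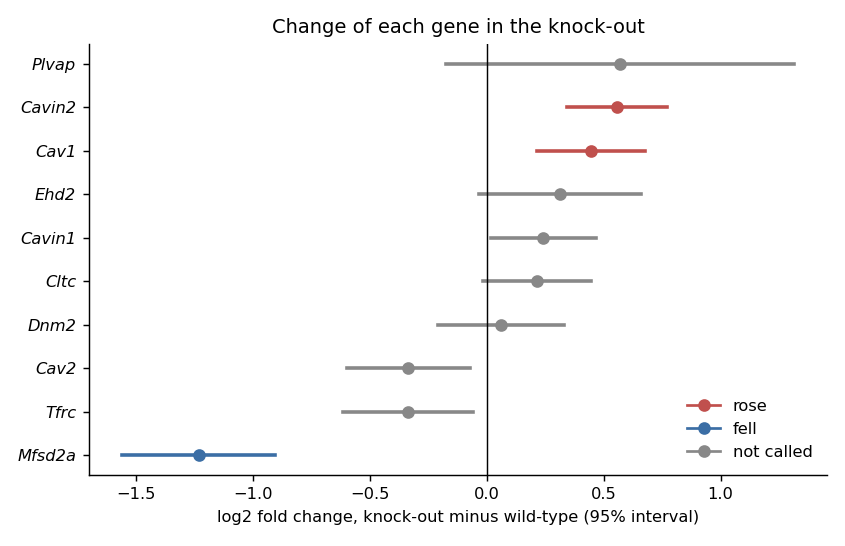
Log2 fold change of each gene in the knock-out, with the 95% interval from the limma fit. Mfsd2a, at -1.23, is the gene farthest from 0, and the interval of Plvap, from -0.17 to 1.31, is the widest of the 10.

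Mfsd2a, the inhibitor of the caveolar route, had the largest change of the 10 genes. The gene (ENSMUSG00000028655, chromosome 4, 122946850 to 122961188 of GRCm38, minus strand) was measured at 4558, 5254 and 6217 normalised reads in the wild-type libraries 1, 2 and 3. In the knock-out libraries 1, 2 and 3 the values were 1957, 2549 and 2311. Every knock-out library lay below every wild-type library, and the lowest wild-type value was still far above the highest knock-out value. The means were 5343 ± 833 and 2272 ± 298 (SD, n = 3), a fold of 0.43 (95% interval 0.34 to 0.53, adjusted p = 0.00274). Mfsd2a was called in each of the 17 alternative fits, with log2 changes from -1.34 to -1.11. Scaled to the summed endothelial markers of each library, a setting added after the data were seen, its fold was 0.44 (adjusted p = 0.00307).

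The 3 genes whose pattern over the 6 libraries was most like that of Mfsd2a were Prr18, Lifr and Cxcr4. Likeness was the root mean square difference of log2 values centred on the wild-type mean, among 6941 named genes above the median level. It was 0.083 for Prr18, 0.099 for Lifr, a subunit of the leukemia inhibitory factor receptor, and 0.102 for Cxcr4, a chemokine receptor. All 3 fell, with log2 changes of -1.19, -1.23 and -1.15.

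The promoters of Mfsd2a, Cavin2 and the neighbouring caveolin genes Cav1 and Cav2 are shown because these genes moved, or lay apart between the groups, in different directions. Each line gives the 250 bases before the transcription start from RefSeq (GRCm38.p6), 5′ to 3′ on the gene's strand. They lie at chr4:122961189-122961438 (minus strand), chr6:17306085-17306334, chr6:17280935-17281184 and chr1:51288876-51289125 (plus strand). Capitals mark matches, on either strand, to any of 5 short motifs that did not overlap each other here.
Mfsd2a: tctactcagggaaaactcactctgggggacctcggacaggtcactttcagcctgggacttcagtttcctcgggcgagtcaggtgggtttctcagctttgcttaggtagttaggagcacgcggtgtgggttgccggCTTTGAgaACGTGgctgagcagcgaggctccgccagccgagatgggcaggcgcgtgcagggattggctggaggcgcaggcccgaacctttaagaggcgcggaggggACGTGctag
Cav1: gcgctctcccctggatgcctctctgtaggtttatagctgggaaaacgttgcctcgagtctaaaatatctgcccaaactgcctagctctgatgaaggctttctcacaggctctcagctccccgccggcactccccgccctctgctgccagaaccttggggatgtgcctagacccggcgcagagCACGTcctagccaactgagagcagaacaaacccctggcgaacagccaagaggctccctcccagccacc
Cav2: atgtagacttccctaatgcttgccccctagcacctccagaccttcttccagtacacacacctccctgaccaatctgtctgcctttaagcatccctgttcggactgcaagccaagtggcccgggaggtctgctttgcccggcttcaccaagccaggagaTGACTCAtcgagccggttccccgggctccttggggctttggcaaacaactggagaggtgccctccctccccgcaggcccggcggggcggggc
Cavin2: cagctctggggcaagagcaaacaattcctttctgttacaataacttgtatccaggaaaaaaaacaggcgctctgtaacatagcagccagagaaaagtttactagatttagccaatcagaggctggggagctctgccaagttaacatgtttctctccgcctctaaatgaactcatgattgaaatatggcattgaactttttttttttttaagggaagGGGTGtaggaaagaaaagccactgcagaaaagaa
The motifs were ACGTG (the core of the hypoxia response element), CACCC (bound by KLF factors), TGANTCA (AP-1), CTTTGA (TCF/LEF) and TGTTTAC (forkhead factors). ACGTG was found at 2 positions before Mfsd2a and 1 before Cav1, and 16.6% of all 32817 promoter windows of this length hold it. The Mfsd2a window also held CTTTGA (13.8% of windows), the Cav2 window TGANTCA (6.75%) and the Cavin2 window CACCC (52.0%). None of these 4 windows held TGTTTAC (3.16%). A match describes the letters of the window and is not evidence of a bound factor. Windows were found for 9 of the 10 genes.

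Among the caveola proteins, Cav1 and Cavin2 rose, and Cav2, Cavin1 and Ehd2 were not called. Cav1, the caveolin without which endothelium forms no caveolae in mice, rose. The gene (ENSMUSG00000007655, chromosome 6, 17306335 to 17341452, plus strand) was measured at 3270, 3359 and 3137 normalised reads in the wild-type libraries 1, 2 and 3, and at 4611, 4814 and 3944 in the knock-out libraries 1, 2 and 3. All knock-out libraries were above all wild-type libraries, with knock-out 3 the lowest of them. The means were 3255 ± 112 and 4456 ± 455 (SD, n = 3), a fold of 1.36 (log2 change 0.45, 95% interval 0.22 to 0.68, adjusted p = 0.0379). A block for the replicate number ended the call of Cav1 (adjusted p = 0.0598). The call was also lost when wild-type 1, 2 or 3 or knock-out 1 or 2 was left out (adjusted p from 0.0816 to 0.140), with log2 changes from 0.39 to 0.47 in these fits. The genes most like Cav1 over the 6 libraries were Atp8b2 and Kif13a, which rose, and Stx2, which was not called (root mean square differences of 0.016, 0.036 and 0.039).

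Cav2, which forms hetero-oligomers with Cav1, was lower in all knock-out libraries. Its gene lies next to Cav1 on the same strand (ENSMUSG00000000058, chromosome 6, 17281185 to 17289115), 17219 bases apart. The annotated antisense gene Gm15581 overlaps both genes on the opposite strand, shares no exon sequence with either, and is not listed in the table. Cav2 was measured at 1106, 1170 and 1362 normalised reads in the wild-type libraries 1, 2 and 3, and at 1043, 879 and 959 in the knock-out libraries 1, 2 and 3. Although the groups did not overlap, wild-type 1 and knock-out 1 lay close together. Group means were 1213 ± 133 and 960.5 ± 81.9 (SD, n = 3), and the test did not call the fold of 0.79 (0.66 to 0.95, adjusted p = 0.155). Within each library, the ratio of Cav1 to Cav2 reads was 2.95, 2.87 and 2.30 in the wild-type libraries 1, 2 and 3, against 4.42, 5.47 and 4.11 in the knock-out libraries 1, 2 and 3. The ratio does not depend on the scaling between libraries, was chosen after the values were seen, and was 1.72 times higher in the knock-out. The two-sided exact permutation test gave p = 0.1, the smallest that 3 against 3 libraries allow.

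Cavin2, a cavin that shapes the caveolar membrane, rose. The gene (ENSMUSG00000045954, chromosome 1, 51289126 to 51302960, plus strand) was measured at 1983, 1850 and 1958 normalised reads in the wild-type libraries 1, 2 and 3, and at 3026, 2591 and 2919 in the knock-out libraries 1, 2 and 3. The groups were well apart, since the highest wild-type library stood below every knock-out library by more than the spread within either group. The means were 1930 ± 71.1 and 2845 ± 226 (SD, n = 3), a fold of 1.47 (1.27 to 1.71, adjusted p = 0.012). It was not called without wild-type 1 (adjusted p = 0.0503) or wild-type 2 (0.0835). Cavin2 is known to be abundant in platelets as well, and summed platelet markers were 82.4 to 92.8 in wild-type and 111 to 320 in the knock-out. This sum rests on Itga2b, Gp1bb and Tubb1, of which Tubb1 rose. The other 6 of 9 platelet markers (Ppbp, Pf4, Gp1ba, Gp9, Gp6 and Treml1) are not among the genes of the deposited table. Both the platelet sum and Cavin2 were higher in all knock-out libraries. Within the knock-out their order differed. Platelet sums were 111, 316 and 320 in knock-out 1, 2 and 3, and Cavin2 was highest in knock-out 1. The part of platelets in the Cavin2 values was not tested.

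Cavin1, the cavin on which caveola formation depends, was higher in all knock-out libraries and was not called. The gene (ENSMUSG00000004044, chromosome 11, 100956733 to 100970887, minus strand) was measured at 7820, 7209 and 7119 normalised reads in the wild-type libraries 1, 2 and 3, and at 8180, 9475 and 8583 in the knock-out libraries 1, 2 and 3. The gap between the groups was smaller than the range within either of them. The fold of 1.18 (1.01 to 1.38) was not called (adjusted p = 0.223). Ehd2 (ENSMUSG00000074364, chromosome 7, 15946958 to 15967567) had 1384 to 1511 normalised reads in wild-type and 1968, 2147 and 1424 in knock-out 1, 2 and 3. Knock-out 1 and 2 were thus above wild-type and knock-out 3 was within it, and the fold of 1.24 (0.98 to 1.58) was not called (adjusted p = 0.315). Without knock-out 3, Ehd2 was called (log2 change 0.49, adjusted p = 0.0255).

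Caveolins and cavins are also abundant in mural cells and fibroblasts. None of 11 tested markers of pericytes and smooth muscle changed. Of 9 tested markers of fibroblasts and meninges, Fbln1 fell and none rose. The fibroblast sum was 3026 to 5764 in wild-type and 2517 to 4214 in the knock-out, and the part of these cells in the caveola values was not tested. No marker of either list was at 0 in any library.

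Of 16 tested genes of caveola assembly, which include 6 of the 10 genes followed here, 5 rose and none fell, with 11 not called. Of all genes tested, 3.6% rose and 2.64% fell. The median log2 change was 0.28, and 13 of the 16 lay above 0, as did 6902 of all 14076 genes. Besides Cav1 and Cavin2, the risen genes were Ehd1, Cavin4 and Pacsin2. Ehd1, which acts in endocytic recycling, had 709 to 770 normalised reads in wild-type and 1268 to 1675 in the knock-out (fold 2.04, 1.68 to 2.47, adjusted p = 0.00295). Ehd1 was called in each of the 17 alternative fits. Pacsin2, an F-BAR protein that bends the caveolar neck, had a fold of 1.42 (1.19 to 1.70, adjusted p = 0.0365). Cavin4, known from muscle, was low, with 22.3 to 39.7 normalised reads in wild-type and 64.6 to 119 in the knock-out (fold 3.10, 1.85 to 5.21, adjusted p = 0.0248). The count for this list depended on single libraries: it was 1 without wild-type 1 or 2, 2 without knock-out 1, and 3 without wild-type 3 or knock-out 2. Cavin4 lost its call without wild-type 1 or 2 or knock-out 1 or 3 (adjusted p from 0.0573 to 0.0950), and Pacsin2 when any library other than knock-out 3 was left out (0.0596 to 0.130) or with endothelial marker scaling (0.0713).

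Plvap, the diaphragm protein, was low in all libraries and was not called. The gene (ENSMUSG00000034845, chromosome 8, 71497765 to 71511752, minus strand) was measured at 49.7, 84.8 and 127 normalised reads in the wild-type libraries 1, 2 and 3. In the knock-out libraries 1, 2 and 3 the values were 136, 126 and 104. The groups overlapped, with wild-type 3 inside the range of the knock-out and wild-type 1 far below the rest. Group means were 87.3 ± 38.8 and 122 ± 16.0 (SD, n = 3), and the test did not call the fold of 1.49 (0.89 to 2.49, adjusted p = 0.403). The values rest on 67 to 193 recovered reads per library. Without wild-type 1 the log2 change was 0.22 and without wild-type 3 it was 0.89, against 0.57 with all libraries.

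Plvap is known to mark choroid plexus capillaries, and the library with the highest Plvap value, knock-out 1, was also the one with high choroid plexus markers. Ttr, the main product of that epithelium, had 58583 normalised reads there and 9336 to 20100 in the other 5 libraries. Among these 5, wild-type 1 had the highest summed choroid plexus markers (26540) and the lowest Plvap value (49.7). Wild-type 2 and 3 had sums of 16882 and 17134 with Plvap at 84.8 and 127. For knock-out 2 and 3 the sums were 15823 and 12778, with Plvap at 126 and 104. None of the 9 markers of choroid plexus epithelium changed between the groups, none was at 0, and their part in the Plvap values was not tested. Among 11 tested markers of fenestrated and large-vessel endothelium, Plvap included, none rose and 4 fell, which were Vwf, Slc38a5, Gkn3 and Sema3g. Their summed level was 17668 to 18732 in wild-type and 12670 to 14147 in the knock-out, and none was at 0. This list pools both kinds of vessel, so neither its sum nor these 4 genes speak for fenestrated endothelium alone. The 3 genes most like Plvap over the 6 libraries were Clic5, St8sia6 and Plcb1, with root mean square differences of 0.150, 0.199 and 0.217, and none of them was called.

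Ratios within a library set Cav1 and Plvap against Mfsd2a without any scaling between libraries. The ratio of Cav1 to Mfsd2a reads was 0.717, 0.640 and 0.505 in the wild-type libraries 1, 2 and 3, against 2.36, 1.89 and 1.71 in the knock-out libraries 1, 2 and 3. Mfsd2a thus had more reads than Cav1 in every wild-type library and fewer in every knock-out library. The mean log2 ratio was -0.70 ± 0.26 in wild-type and 0.97 ± 0.24 in the knock-out (SD, n = 3), a 3.20-fold difference (two-sided exact permutation p = 0.1, the smallest possible here). The ratio of Plvap to Mfsd2a was 0.0111, 0.0163 and 0.0206 in the wild-type libraries 1, 2 and 3, against 0.0699, 0.0498 and 0.0456 in the knock-out libraries 1, 2 and 3. It was 3.48 times higher in the knock-out (exact permutation p = 0.1). Of this log2 difference of 1.80, the log2 change of Mfsd2a itself was -1.23 and that of Plvap 0.57.

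**Figure D3:**
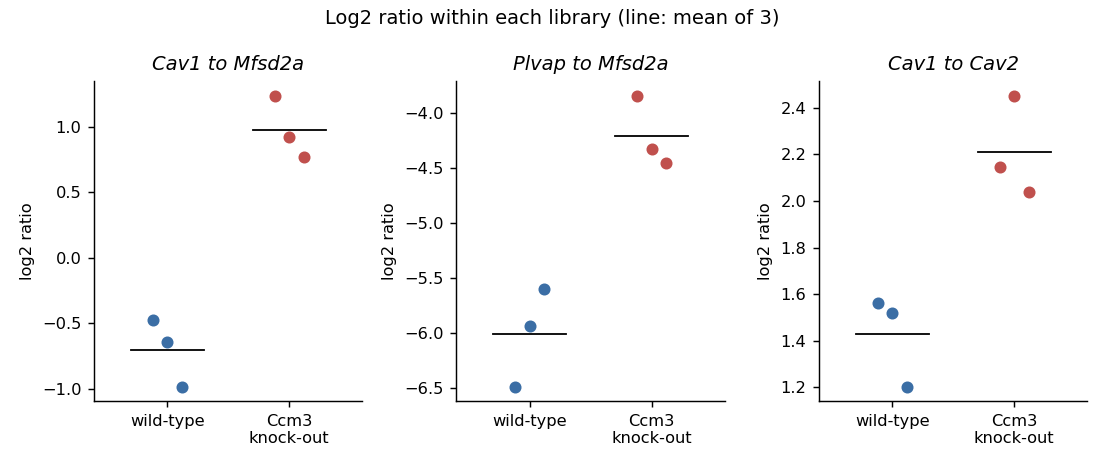
Log2 ratio of normalised reads (value + 1) of the named gene pairs in each library; points are libraries 1, 2 and 3 from left to right and lines are group means. The groups do not overlap in any of the 3 ratios, and the Cav1 to Mfsd2a ratio lies below 0 in all wild-type and above 0 in all knock-out libraries.

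Tfrc, the receptor of the clathrin route, was the most abundant of the 10 genes. The gene (ENSMUSG00000022797, chromosome 16, 32608920 to 32632794, plus strand) was measured at 42520, 44167 and 45504 normalised reads in the wild-type libraries 1, 2 and 3. In the knock-out libraries 1, 2 and 3 the values were 33284, 33295 and 38397. All knock-out libraries were lower, and knock-out 3 was the nearest to wild-type. Group means were 44064 ± 1495 and 34992 ± 2949 (SD, n = 3), and the test did not call the fold of 0.79 (0.65 to 0.96, adjusted p = 0.177). DESeq2 on the recovered reads called it (adjusted p = 0.0154). That test called 9.75% of all genes, 5.72% as higher and 4.04% as lower. edgeR on the same reads called 6.37%, 3.74% as higher and 2.64% as lower, and not Tfrc (adjusted p = 0.153).

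Tfrc is known to be abundant in erythroid precursors too, and erythroid markers differed between the groups. Of 7 tested, 4 fell (Hba-a1, Hba-a2, Hbb-bs and Alas2) and none rose, none was at 0, and their summed level was 10034 to 19943 in wild-type and 5478 to 6674 in the knock-out. The erythroid sum was 19943, 13801 and 10034 in wild-type 1, 2 and 3, where Tfrc was lowest in 1 and highest in 3. In knock-out 1, 2 and 3 the sum was 6261, 5478 and 6674, and Tfrc was highest in knock-out 3. The part of erythroid cells in the Tfrc values was not tested. The genes most like Tfrc over the 6 libraries were Tgs1, Entpd5 and Rnf167 (root mean square differences of 0.044, 0.049 and 0.050), and none of them was called.

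Tfrc mRNA is known to be stabilised in low iron by proteins that bind hairpins in its 3′ untranslated region, the iron-responsive elements. The same hairpin in the 5′ untranslated region of ferritin and ferroportin mRNA is known to block translation in low iron. These hairpins are shown because they set the Tfrc transcript apart in sequence and because 2 of the 3 other genes of the iron list that hold them fell. A hairpin was taken as a C, 5 bases, CAGTGN with a last base other than G, and 5 bases that pair with the first 5, with G-T pairs allowed. The lines give it with 5 more bases on each side from GENCODE M21 transcripts (GRCm38), 5′ to 3′, with the loop in capitals.
Tfrc element A: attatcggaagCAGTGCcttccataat
Tfrc element B: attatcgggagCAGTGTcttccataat
Tfrc element C: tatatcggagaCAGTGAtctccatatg
Tfrc element D: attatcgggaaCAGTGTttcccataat
Fth1: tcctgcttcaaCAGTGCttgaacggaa
Ftl1: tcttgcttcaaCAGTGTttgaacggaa
Slc40a1: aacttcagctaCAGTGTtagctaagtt
The 4 matches in Tfrc lie at chr16:32631220-32631246, chr16:32631599-32631625, chr16:32631664-32631690 and chr16:32631711-32631737 (plus strand). The letters A to D only give their order here, and the pattern leaves out any hairpin without all 5 pairs. Those of the ferritin genes Fth1 and Ftl1 lie at chr19:9982733-9982759 (plus strand) and chr7:45459780-45459806 (minus strand), and that of the iron exporter Slc40a1 at chr1:45925466-45925492 (minus strand). In the longest coding transcript of each of 12696 tested genes, 1.13% held at least 1 such hairpin. Tfrc was the only gene among them with 4.

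Of 20 tested genes of iron uptake and handling, none rose, 5 fell and 15 were not called, with a median log2 change of -0.19. This is 25.0% called, against 6.24% of all genes, of which 2.64% fell. Fth1, the ferritin heavy chain, fell from 7275 to 11476 normalised reads in wild-type to 4183 to 4771 in the knock-out (fold 0.49, 0.38 to 0.64, adjusted p = 0.00958). Fth1 is uncertain, since it has many processed pseudogenes that can share its reads. From wild-type 1 to 3, Fth1 (11476, 9335 and 7275) declined, as the erythroid sum did. In knock-out 1, 2 and 3, Fth1 was at 4771, 4661 and 4183, in another order than that sum. The part of erythroid cells in the Fth1 values was not tested. Slc40a1 (ferroportin) had a fold of 0.61 (0.52 to 0.72, adjusted p = 0.007) and the metal importer Slc39a8 a fold of 0.41 (0.35 to 0.48, adjusted p = 0.00112). Ncoa4, the receptor for ferritin breakdown, and the endosomal iron reductase Steap3 had folds of 0.62 and 0.68 (adjusted p = 0.0191 and 0.0476). Ftl1, the ferritin light chain, had a fold of 0.99 and was not called. Of the 5, Slc39a8 and Slc40a1 were called in each of the 17 alternative fits, and the count was 3, 2 and 3 without wild-type 1, 2 and 3. Fth1 lost its call without wild-type 2 (adjusted p = 0.0540), Ncoa4 without wild-type 1, 2 or 3 or knock-out 2 (0.0685 to 0.0833), and Steap3 when any library other than knock-out 3 was left out (0.0779 to 0.217). The replicate block also ended the call of Steap3 (adjusted p = 0.0512), as did edgeR (0.0523) or endothelial marker scaling (0.180).

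The clathrin heavy chain and dynamin were not called. Cltc (ENSMUSG00000047126, chromosome 11, 86694351 to 86757565, minus strand) was measured at 8994, 8788 and 9555 normalised reads in the wild-type libraries 1, 2 and 3, and at 11408, 10775 and 9638 in the knock-out libraries 1, 2 and 3. The knock-out libraries were all higher, although knock-out 3 and wild-type 3 nearly met. The fold of 1.16 (0.99 to 1.36) was not called (adjusted p = 0.298). Dnm2 (ENSMUSG00000033335, chromosome 9, 21424908 to 21507759, plus strand) had 3895 to 4068 normalised reads in wild-type and 4113, 4838 and 3586 in knock-out 1, 2 and 3. The knock-out libraries lay on both sides of wild-type, and the fold of 1.04 (0.86 to 1.26) was not called (adjusted p = 0.851). Its log2 change was -0.05 without knock-out 2. Dnm2 shares exon sequence with Tmed1 on the opposite strand, and without a stated strand setting its value is uncertain.

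Of 35 tested genes of clathrin coats and their adaptors, 2 rose, 1 fell and 32 were not called, with a median log2 change of 0.081. The 8.57% called lay near the 6.24% of all genes. The clathrin light chain Cltb rose from 699 to 802 normalised reads in wild-type to 1229 to 1841 in the knock-out (fold 1.99, 1.57 to 2.52, adjusted p = 0.008). The other light chain, Clta, had a fold of 1.04 (0.83 to 1.30). Hip1r and Hip1, related proteins that link clathrin coats to actin, went in opposite directions. Hip1r had a fold of 2.13 (1.85 to 2.45, adjusted p = 0.00132) and Hip1 a fold of 0.74 (0.63 to 0.87, adjusted p = 0.0405). With the replicate block Hip1 lost its call (adjusted p = 0.0744), as it did without wild-type 1, 2 or 3 or knock-out 1 or 2 (0.0906 to 0.155) and with endothelial marker scaling (0.145), while Hip1r and Cltb were called in each of the 17 alternative fits. The count for the list was 6 without knock-out 3.

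Genes listed as receptors for transport across brain endothelium changed in both directions. The list also holds scavenger receptors such as Stab1 and Stab2, so its counts do not speak for transport receptors alone. Of 21 tested, Tfrc included, 2 rose, 6 fell and 13 were not called, with a median log2 change of -0.18. The share called was 38.1%, against 6.24% of all genes (3.6% higher and 2.64% lower). The scavenger receptor Stab1 fell from 2588 to 3001 normalised reads in wild-type to 1294 to 1553 in the knock-out (fold 0.52, 0.43 to 0.61, adjusted p = 0.00267). Its relative Stab2 was low, with 10.4 to 11.4 normalised reads in the knock-out (fold 0.34, 0.21 to 0.55, adjusted p = 0.0215). The lipoprotein receptor Scarb1 had a fold of 0.66, the transcobalamin receptor Cd320 a fold of 0.57 and Slc3a2, which encodes the CD98 heavy chain, a fold of 0.63 (adjusted p = 0.00901, 0.012 and 0.0204). The leptin receptor Lepr rose from 307 to 354 normalised reads in wild-type to 999, 642 and 602 in knock-out 1, 2 and 3 (fold 2.22, 1.64 to 3.01, adjusted p = 0.0118). Without knock-out 1, Lepr was still called (log2 change 0.92, adjusted p = 0.00678). Vldlr also rose (fold 2.75, 1.62 to 4.67, adjusted p = 0.0397) and Igf1r fell (fold 0.73, 0.61 to 0.86, adjusted p = 0.044). Vldlr had 73.5 to 79.5 normalised reads in wild-type and 380, 148 and 167 in knock-out 1, 2 and 3. Knock-out 1, the library with high choroid plexus markers, thus stood far above the rest. The part of choroid plexus in the Vldlr values was not tested. Alternative fits are not given for Vldlr and Igf1r. The insulin receptor Insr (fold 0.94, 0.74 to 1.21) and the lipoprotein receptor Lrp1 (0.80, 0.59 to 1.09) were not called. The count of 8 was 3, 1 and 3 without wild-type 1, 2 and 3 and 5 without knock-out 2. Scarb1 and Lepr lost their calls without wild-type 2 (adjusted p = 0.0606 and 0.0653), Cd320 and Slc3a2 without wild-type 1, 2 or 3 (0.0505 to 0.101), Slc3a2 with endothelial marker scaling (0.0695), and Stab2 without these or knock-out 2 (0.0510 to 0.139).

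**Figure D4:**
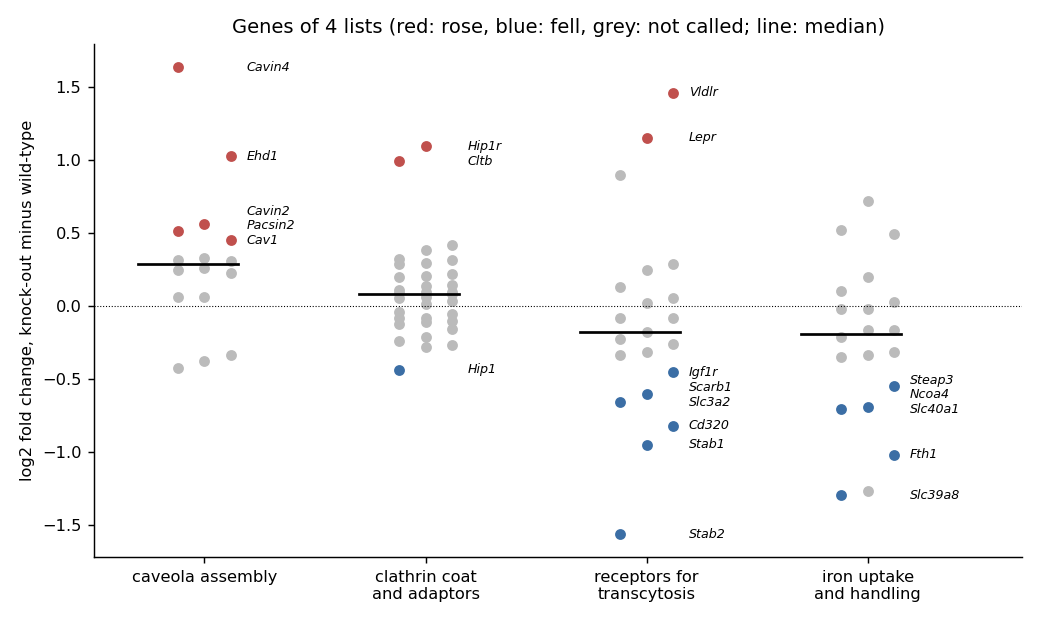
Log2 fold change in the knock-out of every tested gene of 4 lists; red points rose, blue points fell, grey points were not called, and black lines are list medians. The medians are 0.28 for caveola assembly, 0.081 for clathrin, -0.18 for receptors and -0.19 for iron handling, and no caveola gene fell and no iron gene rose.

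Levels between genes were compared per kilobase of annotated exon, which assumes that all exons of a gene are used. In wild-type, Tfrc was highest at 7124 ± 242 normalised reads per kilobase, which placed it at rank 33 of 14025 genes. Mfsd2a followed at 2375 ± 370 and Cavin1 at 2058 ± 106, and the libraries of these 2 genes overlapped. Then came Cltc (1072 ± 46.7), Cav1 (945 ± 32.6), Dnm2 (747 ± 16.2), Cavin2 (632 ± 23.3), Cav2 (364 ± 40.0), Ehd2 (286 ± 13.5) and Plvap (43.9 ± 19.5), each apart from its neighbours in this order (SD, n = 3). Plvap was thus the one gene of the 10 near the middle of all genes, at percentile 45.5, whereas the other 9 lay between percentiles 88.2 and 99.8.

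In the knock-out the order differed. Mfsd2a stood lower, and by their means Cav1 stood above Cltc, Cavin2 above Dnm2 and Ehd2 above Cav2, the reverse of wild-type. Tfrc was again highest at 5658 ± 477 normalised reads per kilobase, followed by Cavin1 (2438 ± 185) and then Cav1 (1294 ± 132) and Cltc (1248 ± 106), whose libraries overlapped. Mfsd2a, at 1010 ± 132, overlapped with Cavin2 (931 ± 74.1), and Cavin2 with Dnm2 (784 ± 118). Ehd2 (361 ± 73.6) and Cav2 (288 ± 24.5) overlapped, and Plvap was lowest at 61.4 ± 8.07 (SD, n = 3). Mfsd2a thus stood at rank 2 of the 10 genes in wild-type and at rank 5 in the knock-out.

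**Figure D5:**
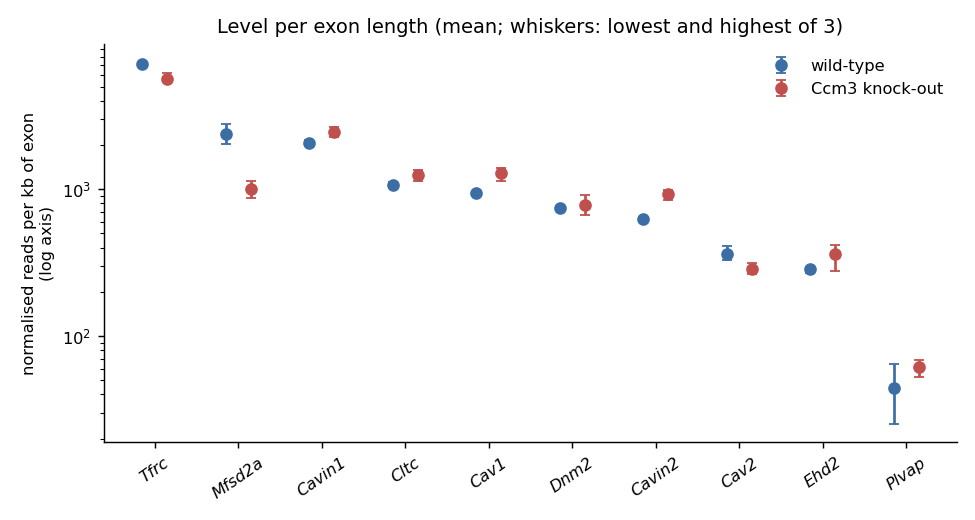
Normalised reads per kilobase of exon on a log axis, ordered by the wild-type mean; points are means and whiskers the lowest and highest of 3 libraries. Mfsd2a drops from 2375 to 1010 while Cavin1, Cav1 and Cltc end above it in the knock-out.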

How the data were processed

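The submitters' processing notes name Trim Galore, STAR 2.5.3a, DESeq2 and the build GRCm38. For the read counter, annotation and strand setting, no source used here says what was chosen. Libraries were stranded total RNA after depletion of ribosomal RNA, per the labels' protocols. The deposited table holds a normalised signal, gene counts that the authors divided by a size factor per library. All values were whole multiples of a step per library (100% within 0.01 of a read), so whole reads were recovered. Replicates differed by more than sampling noise (chi-square of 14.2 to 58.8 per degree of freedom).

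The filter required 10 or more normalised reads in 3 or more of the 6 libraries, which left 14076 genes, and log2(value + 1) was fitted with limma 3.58.1 in R 4.3.3 (genotype, trend, two-sided, Benjamini-Hochberg). Scripts were tested on simulated data. The alternatives were pseudocounts, filters, scalings, array weights, a replicate block, leaving out each library, and edgeR 4.0.16 and DESeq2 1.42.0 on recovered reads. edgeR called 897 genes and DESeq2 1373, against 879. Same-numbered libraries deviated together (correlations over genes of 0.101, 0.110 and 0.192 for numbers 1, 2 and 3), which met the limit of 0.1 set for pairing. The fit reported first has no block and the exact tests are unpaired. Results of the fit with the block stand beside the calls it changed among the 10 genes and the list genes named in order of p. The pairing rests on the data, since no label ties a number to a litter or day. A shifted matching met the limit as well. Its correlations were 0.295 (wild-type 1 with knock-out 2), 0.191 (wild-type 2 with knock-out 3) and 0.109 (wild-type 3 with knock-out 1). The correlations thus do not single out the same-numbered pairs.

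The 10 genes and all lists were chosen with earlier results of these data known, so their shares of called genes are descriptive and test no pathway. Beyond the 10, each list's called genes were named in order of p, up to 6, or its 3 top genes where fewer than 3 were called, with 3 genes of like pattern for Mfsd2a, Plvap, Cav1 and Tfrc. Clta, Ftl1, Insr, Lrp1, Vldlr, Igf1r and the marker genes were named after their values were seen. GENCODE M21 (GRCm38) gave positions and exon lengths.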

Additional observations from a re-analysis of the deposited data

How the results depend on the processing

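Of the 10 genes, Mfsd2a kept its call in all 17 alternatives. The number that rose was 1 with the replicate block, against 2, and 0 to 3 when 1 library was left out (0 without wild-type 1 or 2, 3 without knock-out 3). The number that fell was 2 with DESeq2, against 1. The log2 change of Dnm2 ranged from -0.051 (without knock-out 2, a change of sign) to 0.16 when 1 library was left out, and the cause was not tested. Over all genes, 879 were called, 283 to 1032 without 1 library and 1373 with DESeq2. Endothelial marker scaling, added after the data were seen, called 690 genes, of which 69.6% rose, against 57.7%. Among the 10 genes and the list genes named in order of p, it ended the calls of Pacsin2, Hip1, Slc3a2 and Steap3.

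Without 1 library, called members numbered 1 to 5 of the caveola list (5 in the full fit), 2 to 6 of the clathrin list (3), 1 to 7 of the receptor list (8) and 2 to 6 of the iron list (5). DESeq2 called 5 of the clathrin list and 8 of the iron list. Fewer libraries leave fewer degrees of freedom. The replicate block ended the calls of Cav1, Hip1 and Steap3 (adjusted p = 0.0512) among 27 named genes and changed no other call of theirs. The log2 ratios kept their direction: Cav1 to Mfsd2a 1.54 to 1.79, Plvap to Mfsd2a 1.56 to 2.01 and Cav1 to Cav2 0.66 to 0.87 without 1 library. For Plvap, 67 to 193 reads per library limit the precision.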
